A study of Coprinopsis cinerea with 7 samples.

Results

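The strongest anti-CMS enrichment in the genome of Coprinopsis cinerea, the ink cap mushroom, lay in short peaks. They were taken here as all 300 bp windows with at least a 4-fold enrichment over input. Enrichment, written E, is the log2 ratio of the mean immunoprecipitation (IP) signal to the mean input signal, minus the median of that ratio over all windows. Signal is in CPM, the counts of a window scaled by the total of its column, plus 0.1. Windows with E of 2 or more and a summed input count of 20 or more were kept, which gave 737 of 120537 windows (0.611%). Adjacent windows were joined into 310 peaks. The windows were chosen by E in one of the 2 deposited tables, the primary table. Their enrichment there is thus a description and was not tested. The build behind the coordinates is not named in the sources.

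The samples were oidia, the asexual spores of the fungus, the only stage in the labels, which name no strain and no treatment. The labels describe 7 libraries from 2 biological replicates: 5 IPs with a non-commercial anti-CMS antibody, 3 technical replicates of the first and 2 of the second biological replicate, and 2 inputs, 1 of each. Whether technical replicates were merged into the columns is not stated. Each table holds 2 columns of either kind, with the tags 1_1 and B_1, and no label ties a tag to a biological replicate. Nothing in the labels says that the columns came from separate cultures, so the spread between columns may be technical.

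The assay, CMS-seq, is aimed at 5-hydroxymethylcytosine (5hmC). Some enzymes of the TET/JBP family oxidise 5-methylcytosine to 5hmC. Bisulfite treatment converts that base to CMS, cytosine 5-methylenesulfonate, and the antibody binds DNA fragments that carry it. In fungi, DNA methylation is commonly found on repeats and transposons, and basidiomycetes such as C. cinerea encode many TET/JBP proteins. No control IP, without antibody or on DNA that lacks 5hmC, was analysed here.

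In the primary table the columns summed to 106176723 (IP 1_1), 67181684 (IP B_1), 36059418 (input 1_1) and 36233140 (input B_1) counts. The other table has a name that refers to multiple mapping, and is termed multi-mapped for that reason. Its columns summed to 24990768, 19994333, 28735765 and 27600179 in the same order. No window exceeded 1071 counts in the multi-mapped table, against 162928 in the primary table. The multi-mapped inputs differed by less than the sampling noise over all windows (chi-square per degree of freedom 0.916). Calls from that table are therefore also given with both inputs counted as 1 sample. At peak windows, however, its IP columns were the pair under the sampling noise (0.506, against 1.03 for its inputs). That setting still counts the IP columns as 2 samples, so it does not allow for this. The IP columns of the primary table differed by more than the sampling noise (9.69). These values cover counting error only.

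The peak windows held 3.98% of all counts in IP 1_1 and 5.63% in IP B_1, against 0.537% in input 1_1 and 0.522% in input B_1. The 0.611% of windows in peaks thus carried more than their share of the IP counts and slightly less than their share of the input counts. By the multi-mapped table the same windows held 1.28% and 1.54% of IP counts and 0.758% and 0.741% of input counts. A single window, the summit of the highest peak, held 0.147% of IP 1_1 and 0.242% of IP B_1.

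A typical peak window held 3740 counts in IP 1_1 and 3333 in IP B_1 (medians over 737 windows), against 242 in input 1_1 and 241 in input B_1. Over all windows the medians were 750, 466, 275 and 282. The IP columns were therefore far above their usual level at peak windows, and both inputs were somewhat below theirs. IP 1_1 spanned 178 to 156436 counts, IP B_1 183 to 162928, input 1_1 8 to 2024 and input B_1 5 to 1912. E had a median of 2.70 and a highest value of 8.54, with 284 windows at 3 or more, 97 at 4 or more and 32 at 5 or more. edgeR's quasi-likelihood test called all 737 windows higher in IP in the primary table, where 8.75% of all tested windows were called. The authors' deposited table also called all 737, and 3.26% of all windows. Both rest on the contrast that chose the windows.

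Windows on both sides of the threshold looked alike. Just inside it lay chromosome 9 at 1063201 to 1063500 (E of 2.00; 3635 and 2248 IP counts, 350 and 324 input counts), chromosome 3 at 361501 to 361800 (3088 and 2495 against 331 and 328) and chromosome 6 at 1463401 to 1463700 (1874 and 1696 against 195 and 230). Just outside it lay chromosome 4 at 777301 to 777600 (944 IP 1_1 counts against 97 and 101), chromosome 10 at 1644601 to 1644900 (5463 and 4672 against 585 and 626) and the first window of supercont3.32 (489 and 280 against 41 and 42). The IP counts of the 3 windows inside lay within the range of the 3 outside.

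The peaks were narrow. Of the 310, 75 were 1 window wide, 136 were 2 windows, 48 were 3, 26 were 4, and 25 were 5 windows or more, with a median width of 600 bp and a longest of 2400 bp. Taken out to windows with E of 1 or more, the median width was 1200 bp. Wider peaks were also higher: the median summit E was 2.23 for peaks of 1 window, 2.80 for 2 windows, 3.45 for 3, 3.81 for 4 and 4.21 for 5 or more (Spearman's rho 0.683 across 310 peaks, which share libraries). Part of this follows from the threshold, since a higher summit leaves more of its flanks above 2.

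Around the summit window, the window of highest E in a peak, the median IP signal fell quickly. It was 33.0 CPM in IP 1_1 and 47.5 in IP B_1 at 305 summits with room on both sides. It fell to 20.3 and 25.5 CPM at 300 bp before the summit and to 22.3 and 30.0 CPM at 300 bp after it. At 600 bp it was 10.9 to 12.6 CPM, and at 3000 bp it was 7.52 to 8.16 CPM. The IP signal was thus near its genome-wide level within a few kilobases. Input went the other way, with 5.74 and 5.82 CPM at the summit against 7.63 to 8.20 CPM at 3000 bp. Since E divides by the input, a rule on E also picks windows of low input. The multi-mapped table showed no such dip in input (8.39 and 8.23 CPM at the summit; 7.83 to 8.53 CPM at 3000 bp), and its IP rose to 15.8 and 19.0 CPM.

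**Figure D1:**
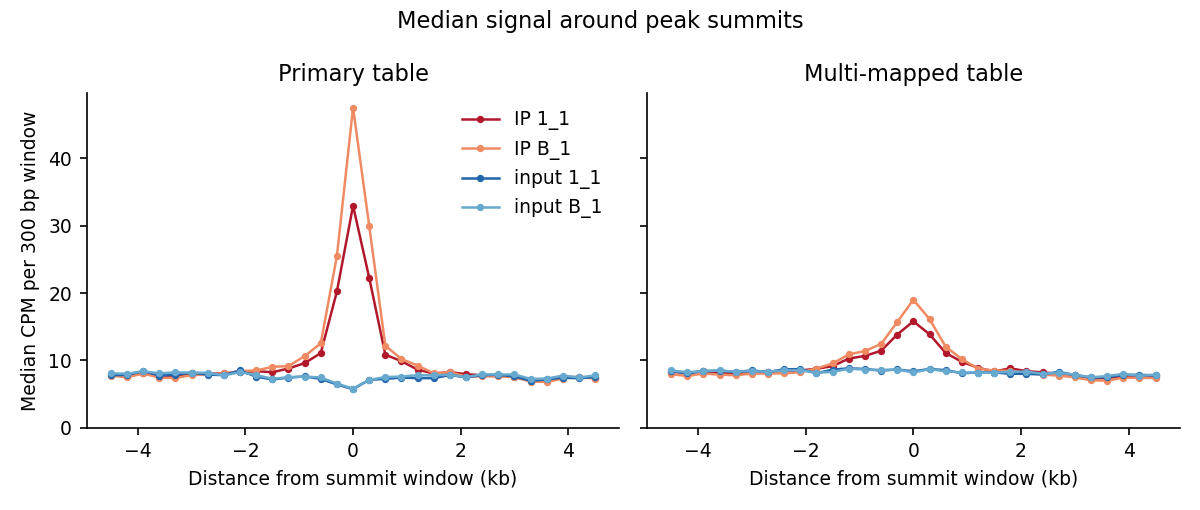
Median CPM per 300 bp window (y axis, from 0) by distance from the summit window in kb (x axis) at 305 summits, for the 2 IP columns (red, orange) and the 2 input columns (blues). In the primary table IP reaches 33.0 and 47.5 CPM at the summit and input dips to 5.74 and 5.82. In the multi-mapped table IP reaches 15.8 and 19.0 CPM and input stays level.

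Most peaks stood alone on a low base. At 1500 bp on both sides E was under 1 for 214 of 305 summits, and at 900 bp for 159. Among the 99 peaks of 3 or more windows, 25 had their summit in an edge window, and 8 had separate tops with a dip of at least 0.5 in E between them. Weaker enrichment often reached beyond the peak: 287 of 310 peaks lay in a longer run of windows called higher by edgeR (gaps of 1 window allowed), with a median run of 2700 bp and a longest of 15300 bp. At 4500 bp before the summit 23.6% of windows were still called higher in the primary table and 17.0% in the multi-mapped table. The shares over all windows were 8.75% and 7.00%.

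The highest peak lay on chromosome 7 at 2253301 to 2254500 and overlapped CC1G_14887. Its 4 windows held 2618 CPM in IP 1_1, 4317 in IP B_1, 16.5 in input 1_1 and 18.2 in input B_1. Its E rose from 3.41 in the first window to 8.14 and 8.54 and was 6.98 in the last. Its summit window had 156436 and 162928 IP counts against 194 and 219 input counts. The multi-mapped table gave the same summit 629 and 640 IP counts and at most 290 input counts. There it was higher in IP by a log2 fold change of 1.57 ± 0.15 (SE), with an adjusted p of 1.43e-17 by edgeR's quasi-likelihood test. The window was picked for its E in the primary table. Both tables may hold the same libraries, so this p is no independent test of it.

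Next came chromosome 2 at 2826301 to 2827500, which touched no gene model. Only 300 bp separated it from a peak before it that touched CC1G_09167 (summit E of 4.72). The peak at 2826301 held 159.9 and 240.4 CPM in IP against 10.8 and 10.5 in input. Its summit, E of 7.09, was the first window, with 6830 and 6695 IP counts against 23 and 18 input counts. The input counts there were low for this peak, whose last window held 210 and 213. By the multi-mapped table the inputs were level across the peak (278 and 243 counts in the first window, 241 and 218 in the last).

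On chromosome 8 at 55801 to 56700, also clear of gene models, IP held 328 and 536 CPM and input 5.91 and 8.34 (summit E of 6.60). On chromosome 9 at 763501 to 764400, over CC1G_02422, IP held 372 and 528 CPM and input 9.35 and 7.18 (6.53). In both peaks every IP column stood far above every input column.

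Chromosome 13 held a peak at 135601 to 136800 that touched CC1G_15766, with 1254 and 1598 CPM in IP and 33.6 and 33.2 in input (summit E of 6.48). Chromosome 3 held one at 1233001 to 1234200, clear of gene models and 300 bp from the next peak. It had 1653 and 2015 CPM in IP and 43.0 and 34.9 in input (6.11). With the peak on chromosome 7, these peaks on chromosomes 13 and 3 were the highest by IP signal among the 10 highest by E. By the multi-mapped table the peak on chromosome 13 had a mean of 112.8 CPM in IP and 78.8 in input, only 1.43-fold more.

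The other four of the 10 were wider or less extreme. Chromosome 3 at 2501401 to 2503200 held 428 and 704 CPM in IP and 27.3 and 29.3 in input over 6 windows clear of gene models (summit E of 6.35). Chromosome 4 at 1366201 to 1367400, touching CC1G_14366 and 300 bp after another peak, held 722 and 919 against 37.3 and 36.3 CPM (6.09). Chromosome 1 at 3687301 to 3689100, touching CC1G_00715, held 688 and 930 against 55.1 and 53.8 CPM (6.08). In both of these the midpoint of the summit window lay outside the gene. Chromosome 7 at 2397001 to 2399100 held 1055 and 1218 against 61.3 and 52.5 CPM over 7 windows clear of gene models (5.93).

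Over these 10 peaks the IP-to-input ratio of summed CPM ran from 14.9 to 200.2 in the primary table and from 1.39 to 2.65 in the multi-mapped table. All 10 had both IP columns above both inputs in each table, and 5 of the 10 touched no gene model. Of the 10 summits, edgeR's quasi-likelihood test on the multi-mapped table called 9 higher, where it called 7.00% of all windows. With both inputs counted as 1 sample it called 4, where it called 2.75% of all windows. The exception in the first case was chromosome 7 at 2397601 to 2397900 (0.57 ± 0.25 SE, edgeR adjusted p = 0.156), where that table held 1016 and 994 IP counts, close to its highest window count of 1071.

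**Figure D2:**
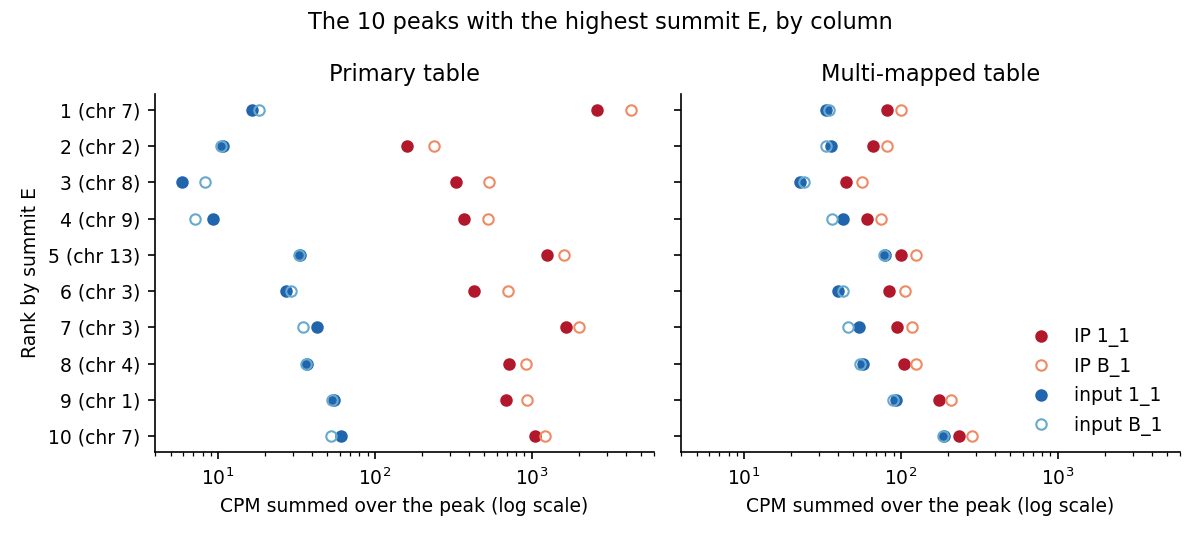
CPM summed over each of the 10 peaks with the highest summit E (x axis, log scale; 1 point per column, IP red and orange, input blue, tag B_1 open), ranked by summit E (y axis, with the chromosome). IP-to-input ratios are 14.9 to 200.2 in the primary table and 1.39 to 2.65 in the multi-mapped table.

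The 5 widest peaks spanned 2100 to 2400 bp, and 4 of them overlapped gene models. The widest, on chromosome 12 at 1386901 to 1389300 over CC1G_06498, was a low plateau: E stayed between 2.02 and 2.88 in its 8 windows. It held 288 and 412 CPM in IP and 66.3 and 70.6 in input. A peak on chromosome 13 at 867901 to 870000 (CC1G_04813 and CC1G_04814) held 556 and 802 against 73.3 and 65.6 CPM, with a summit E of 4.61. On chromosome 1 at 3741601 to 3743700 (CC1G_00730 and CC1G_13777) IP held 521 and 769 CPM against 66.4 and 64.6, and on chromosome 8 at 2014201 to 2016300 (CC1G_15062 and CC1G_12444) 490 and 649 against 84.3 and 76.0. These 4 peaks kept IP-to-input ratios of 2.23 to 2.54 in the multi-mapped table. The other of the 5, on chromosome 7 at 2397001, had a ratio of 1.39 there.

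At the weak end, the 5 peaks of lowest summit E were single windows with E of 2.00 to 2.04. IP held 31.3 and 44.3 CPM against 10.3 and 10.5 in input on chromosome 5 at 68101 to 68400 (CC1G_08919). On chromosome 7 at 1203901 to 1204200 (CC1G_14821) it held 25.2 and 35.5 against 7.99 and 8.36 CPM. Those on chromosome 2 at 2124301 (20.9 and 26.4 against 6.24 and 6.43 CPM) and on chromosome 13 at 596101 (12.8 and 18.3 against 3.99 and 4.33 CPM) touched no gene model. The fifth, on chromosome 10 at 495901 to 496200, held only 229 and 206 IP counts against 19 and 28 input counts, far under the genome-wide medians. The multi-mapped table gave that window, also clear of gene models, 768 and 756 IP counts and 705 and 631 input counts. edgeR called all 5 windows higher in that table, where 7.00% of all windows were called, and 4 with both inputs counted as 1 sample, where 2.75% were.

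The peaks were far lower in the multi-mapped table. Their windows had a median E of 1.07 there (range 0.27 to 2.48; all windows 0.00 by construction), with 0.892 for tag 1_1 and 1.23 for tag B_1. Both IP columns exceeded both inputs in 737 of 737 windows, where 17.4% of all windows did so. edgeR's quasi-likelihood test called 707 of 737 windows higher (95.9%) in that table, where it called 7.00% of all windows. With both inputs counted as 1 sample, chosen after seeing the data, it called 571, where 2.75% of all windows were called. DESeq2 called 520 of the 737, where it called 5.63% of all windows. The authors' deposited table for multiple mapping called 702, and 3.21% of all windows. Whether both tables come from the same libraries is not stated, so these calls are not independent of the rule.

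At 4-fold or more the tables parted: 5 of the 737 windows had E of 2 or more in the multi-mapped table, and no other window of the genome did (5 of 120537, 0.00415%). At E of 1 or more 428 of the 737 did (58.1%), where 0.465% of all windows did, and these made up 76.3% of the 561 windows at that level. Within the peak windows, E in one table was only weakly related to E in the other (Pearson's r 0.294, Spearman's rho 0.327 across 737 windows, which share libraries). The rule cut these windows at E of 2, which narrows their range. Windows with E of 2 to 2.5 had a median multi-mapped E of 0.967 and windows of 3 to 4 had 1.18. Windows of 4 to 5 had 1.33 and the 32 windows of 5 or more had 1.22. Below the threshold, windows with E of 1 to 2 had 0.691.

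**Figure D3:**
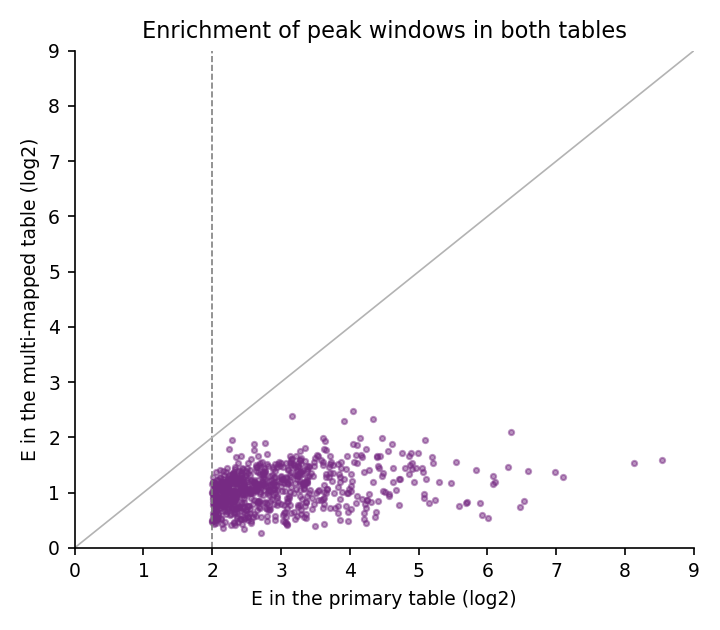
E in the primary table (x axis, log2) against E in the multi-mapped table (y axis, log2) for 737 peak windows, 1 point each. The dashed line is the threshold of 2 and the grey line marks equal values. Points reach 8.54 on the x axis and 2.48 on the y axis, and 5 lie at 2 or more in both.

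The number of counts per window changed unevenly between the tables. With both columns of a group summed, IP held 9.74 primary counts per multi-mapped count at the median peak window, against 4.08 over all windows. Input held 1.24 at peak windows and 1.38 over all windows. The primary IP count that enters E is also the numerator of this figure, so its level at peak windows follows in part from the rule. It was 7.38 for E of 2 to 2.5, 12.8 for E of 3 to 4 and 42.3 for E of 5 or more. It exceeded 10 at 48.2% of peak windows and 0.366% of all windows. At the summit on chromosome 7 it reached 252. How the tables treat repeated copies of a read and reads with several places in the genome is not stated, and its part in the height of the peaks was not tested.

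The 5 peaks with the highest mean E in the multi-mapped table were not the highest in the primary table. The first, on chromosome 2 at 1271101 to 1272000 within CC1G_01237, held 57.3 and 65.2 CPM in IP and 14.9 and 16.0 in input there, 3.96-fold more (summit log2 2.48 ± 0.12 SE, edgeR adjusted p = 3.20e-44). In the primary table it held 124.8 and 180.4 against 14.1 and 15.4 CPM, with a summit E of 4.05. The same gene held another of the 5, at 1268701 to 1269300. The others lay on chromosome 5 at 921601 to 923100 (CC1G_00023; 62.3 and 73.6 CPM against a mean of 20.5), chromosome 4 at 1738201 to 1739100 (CC1G_06291; 27.3 and 30.7 against 9.47 and 9.09) and chromosome 13 at 146701 to 147000 (no gene model; 6.64 and 6.75 against 2.16 and 1.85). These 5 were picked by their multi-mapped values, so this p and their calls (5 of 5, also with both inputs counted as 1 sample) are no test of them. The ratios of these 5 peaks in the primary table were 4.45 to 10.4. In the peak on chromosome 5 only the first window, with E of 2.14, had its midpoint inside CC1G_00023. Of all windows, edgeR called 7.00% higher from the multi-mapped values.

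At the other end, 5 peaks had IP-to-input ratios of only 1.24 to 1.28 in the multi-mapped table, against 4.52 to 12.7 in the primary one. They lay on chromosome 10 at 448801 (CC1G_15267) and 1806601 (CC1G_02160), chromosome 9 at 2158801 and 58801, and chromosome 13 at 795001 (CC1G_04790). The peak at 58801 to 59400 on chromosome 9 held 265 and 309 CPM in IP and 26.1 and 19.1 in input in the primary table, against 21.9 and 22.9 and 20.4 and 14.8 in the multi-mapped one. The ratio between its inputs was thus larger than that between its IP columns in both tables. Of all windows, edgeR called 7.00% higher in the multi-mapped table. These 5 were also picked by multi-mapped values, where edgeR's quasi-likelihood test called all 5 summits higher, and 3 with both inputs counted as 1 sample.

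Not every peak was a rise in IP signal along the chromosome. Set against the mean of the windows 3000 bp away on both sides, IP at the summit was at least 4-fold higher at 184 of 305 summits and at least 2-fold at 250, but it was no higher at 28. A summit with E of 2 or more and no such rise has low primary input, unless IP is also high 3000 bp away. Those 28 had a median of 6.11 CPM in IP 1_1 and 9.35 in IP B_1, about the genome-wide level, and only 1.61 and 1.59 CPM in the inputs. Their inputs in the multi-mapped table held 9.40 and 7.97 CPM, so input was low in the primary table alone. Their median input was 0.258 primary counts per multi-mapped count. By contrast, the 184 summits with at least 4-fold higher IP had 7.43 and 7.22 CPM in the inputs, 8.98 and 8.80 in the multi-mapped table, and 1.25 primary counts per multi-mapped count.

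Both kinds were enriched in the multi-mapped table. Median E there was 0.984 for the 28 summits and 1.13 for the 184. edgeR called 28 of 28 and 182 of 184 higher there, where it called 7.00% of all windows. Over all peak windows, 21.2% held fewer than 0.5 primary input counts per multi-mapped count, against 5.44% of all windows. Since E divides by primary input, the rule favours such windows, and this share is a description.

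The IP columns differed at the peaks. IP B_1 exceeded IP 1_1 in CPM in 727 of 737 windows (98.6%), where it did so in 45.2% of all windows, by a median of 0.52 on the log2 scale against -0.02 over all windows. The inputs showed no such shift (median -0.02 at peak windows, 0.01 over all). E was 2 or more in all 737 windows by tag B_1 alone and in 553 by tag 1_1 alone. The lowest single value was 1.26 in tag 1_1 and 2.03 in tag B_1. With 1 column per tag this difference has no replicate check, and the average of both columns chose the windows.

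In counts the IP columns were, at the median, nearer to each other at peaks than elsewhere. The median ratio of B_1 to 1_1 counts was 0.908 at peak windows, 0.791 at windows with E of 1 to 2, and 0.621 over all windows, where the ratio of the totals was 0.633. For the multi-mapped table it was 0.962 at peak windows, 0.921 at windows with E of 1 to 2 and 0.771 over all, with 0.800 for the totals. The ratio ran from 0.545 to 1.42 over peak windows of the primary table. The summits of the 3 highest peaks had 629 and 640, 475 and 463, and 471 and 480 IP counts in the multi-mapped table. IP B_1 exceeded IP 1_1 in CPM in 733 of 737 windows there, against 37.4% of all windows. The chi-square per degree of freedom between the IP columns at peak windows was 43.1 in the primary table and 0.506 in the multi-mapped one. Both values leave out the shift in CPM that the peak windows share. Apart from that shift, the ratio of the multi-mapped IP columns varied less from window to window than independent counts would.

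**Figure D4:**
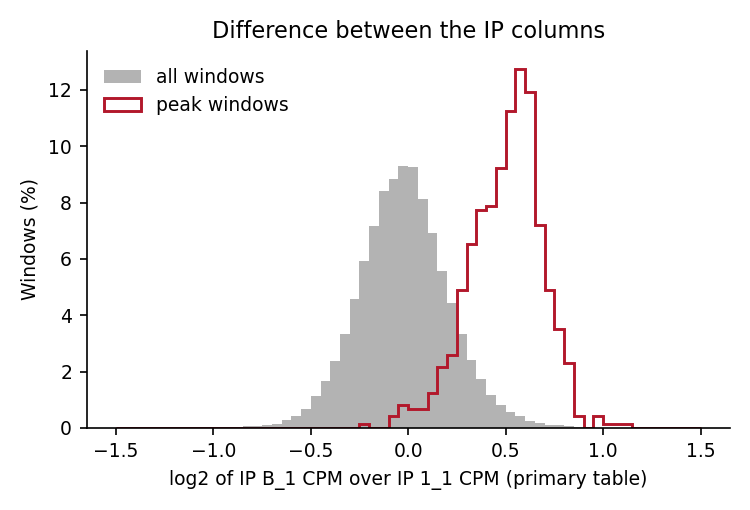
Log2 of IP B_1 CPM over IP 1_1 CPM in the primary table (x axis) by percent of windows (y axis), for all 120537 windows (grey) and 737 peak windows (red outline). Peak windows centre on 0.52 and all windows on -0.02.

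Peaks were found on all 13 chromosomes, with 306 of them there and 4 on supercontigs, the short unplaced pieces of the assembly. Chromosome 13, the shortest, had the most per length, 18 peaks or 18.3 per Mb. Chromosome 9 followed with 31 peaks (12.5 per Mb), then chromosome 2 with 40 (10.7 per Mb). Chromosome 1, the longest, had the fewest per length, 19 peaks or 4.58 per Mb. Peak density did not simply follow weaker enrichment: chromosome 6 had the highest share of windows called higher by edgeR among chromosomes (13.2%) and 8.41 peaks per Mb. Supercontigs had 31.2% of tested windows called and 0.775% of windows in peaks, near the 0.611% of the genome.

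Peaks were usually far apart. The median gap between neighbours was 49500 bp, and 102 of 293 gaps were over 100000 bp. A smaller group lay close together, with 60 gaps of at most 5000 bp and 19 of 300 bp. Of 723 bins of 50 kb, 526 held no peak, 20 held 3 or more and 3 held 5 or more. Those 3 bins, named after their values were seen, lay on chromosome 9 at 2200001 to 2250000 (6 peaks, summit E of 2.33 to 4.25), chromosome 5 at 900001 to 950000 (5 peaks, 2.09 to 4.34) and chromosome 3 at 350001 to 400000 (5 peaks, 2.05 to 3.37). Chromosome ends held no excess: 0.962% of peak windows on chromosomes lay within 20 kb of an end, against 1.46% of all chromosome windows, and 2.88% against 3.64% within 50 kb.

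By their midpoints, peak windows lay mostly outside gene models. Gene models came from the RefSeq table of assembly CC3, whose placement on these windows is described with the processing. Of 728 peak windows on chromosomes, 266 (36.5%) had their midpoint inside a gene, against 65.4% of all chromosome windows, 47.9% of the other windows called higher by edgeR, and 42.2% of windows with E of 1 to 2. The share was lower for higher windows, from 43.1% at E of 2 to 2.5 to 28.8% at E of 3 to 4 and 31.2% at E of 5 or more. Among summits it was 31.0%. Windows share peaks and neighbours, so no test was made of these shares. The rule also favours windows of low input, and input correlated with gene cover (r of 0.131 to 0.255 by chromosome). Its part in these shares was not tested. The whole peak touched no gene model for 16 of the 28 summits without a rise in IP over 3000 bp away. It was 19 of 27 for a log2 rise of 0 to 1, 31 of 66 for 1 to 2 and 68 of 184 for 2 or more. These counts depend on peak width too. No gene was touched by 58.7% of peaks of 1 window, 39.1% of 2, 48.9% of 3, 30.8% of 4 and 32.0% of 5 or more.

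Among windows that overlapped a gene, 0.373% were in peaks (335 of 89707). The share was 0.983% for windows up to 300 bp from the nearest gene, 1.55% beyond that up to 1000 bp, 2.28% from there to 2000 bp and 1.52% from there to 4000 bp. Beyond 4000 bp it was 0.281%, only 5 of 1780 windows. The share in peaks was thus highest at 1000 to 2000 bp from a gene and lowest beyond 4000 bp. Of 306 peaks on chromosomes, 135 touched no gene model, 145 touched 1 and 26 touched 2 or more. For comparison, 89707 of all 119376 single windows on chromosomes overlapped a gene.

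**Figure D5:**
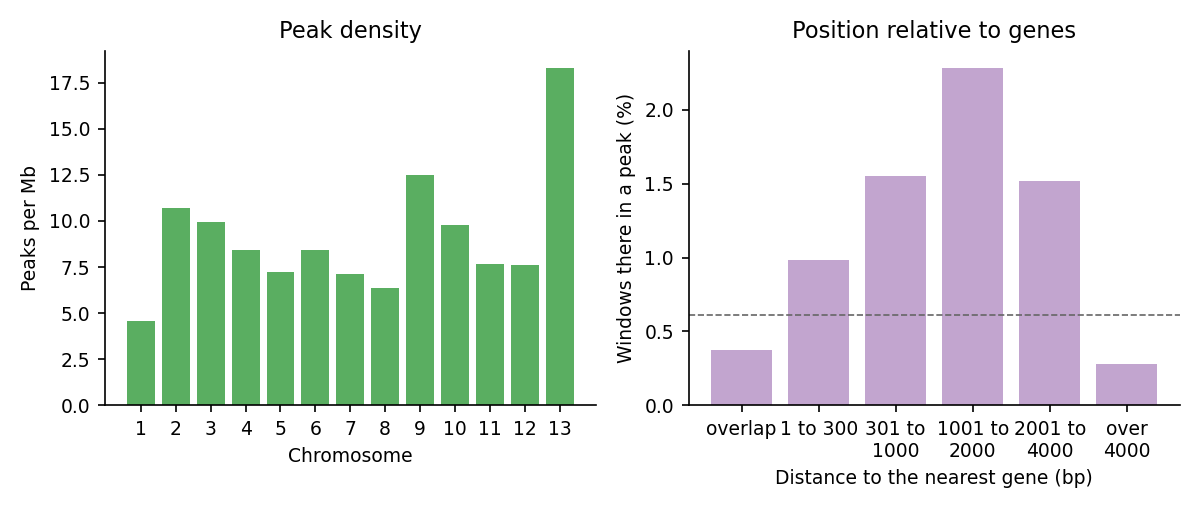
Left, peaks per Mb (y axis) on each chromosome (x axis), from 4.58 on chromosome 1 to 18.3 on chromosome 13. Right, percent of windows in peaks (y axis) by distance to the nearest gene (x axis, bp), from 0.373% for overlap to 2.28% between 1000 and 2000 bp and 0.281% beyond 4000 bp, with the share of 0.611% over all windows as a dashed line.

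Several genes held a run of peak windows. Peaks touched 187 of 13497 genes on the chromosomes (1.39%), of which 181 were protein-coding. In 25 genes at least 3 peak windows had their midpoint, and in 10 at least 4. The 3 with 6 each were CC1G_06498 on chromosome 12 (E of 2.02 to 2.88), CC1G_12134 on chromosome 4 (2.02 to 2.74, in 2 peaks) and CC1G_12444 on chromosome 8 (2.32 to 3.29). The highest E in such a gene was in CC1G_11689 on chromosome 8, with 4 windows of 3.12 to 5.69. CC1G_15723 on chromosome 11 had 3 windows of 2.80 to 5.06. By the multi-mapped values CC1G_01237 on chromosome 2 led, with 5 windows of 1.67 to 2.48, followed by CC1G_06291 on chromosome 4 with a highest window of 2.39. The gene table gives no product for these genes.

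Of 255 genes for transfer RNA, which carry amino acids to the ribosome, peaks touched 5 (1.96%). They were CC1G_20011 on chromosome 1 (E of 2.73), CC1G_20052 on chromosome 3 (2.23), CC1G_20105 on chromosome 5 (2.34), CC1G_20172 on chromosome 8 (2.18 and 2.37) and CC1G_20214 on chromosome 6 (2.44). Their multi-mapped E lay between 0.716 and 1.13. Of 11 transfer RNA pseudogenes 1 was touched, CC1G_20243 on chromosome 11 (2.48). Windows are longer than these genes, so the values also cover their flanks.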

How the data were processed

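Read counts per 300 bp window, as deposited by the authors in 2 tables, were used as they stand. Per the submitters' processing notes, Bismark 0.6.4, Bowtie 0.12.7 and edgeR were used, in roles not given there. No source used here gives the genome build or how duplicates and multiple hits were handled. The authors' deposited log2 fold changes (input over IP by sign) and adjusted p-values were read only to count their calls. A further 8 per-sample columns were not used.

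Columns were taken as 2 replicates per group. The members, lists and alternatives were chosen with earlier results of these data known. CPM used each column's total. edgeR 4.0.16 (R 4.3.3) was run on all windows with at least 10 counts, with TMM scaling, a quasi-likelihood test and Benjamini-Hochberg adjustment (threshold 0.05), and DESeq2 1.42.0 as an alternative. Standard errors come from the F statistic. The edgeR step was tested on simulated counts. Peaks named are the 10 of highest summit E, the 5 widest, the 5 of lowest summit E, and the 5 highest and 5 lowest by mean multi-mapped E. Genes named overlap these, hold at least 3 peak windows or are not protein-coding.

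Gene models came from a RefSeq table of assembly CC3. With shifts of up to 300 windows each way, input counts and gene cover correlated best within 1 window of no shift on 13 of 13 chromosomes (r of 0.131 to 0.255, against at most 0.155 beyond 10 windows). Printed coordinates are those of the window tables. That table gives no products, so lists by product were not run, and no genome sequence was used. Figures were drawn with matplotlib 3.10.9.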

Additional observations from a re-analysis of the deposited data

How the results depend on the processing

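The number of peak windows stayed between 610 and 745 with a pseudocount of 1 CPM, other input minimums, no centring or TMM scaling, and between 565 (without IP B_1) and 886 (without IP 1_1) when 1 column was left out. A threshold of 3 left 284 windows in 142 peaks. The same rule on the multi-mapped values gave 5 windows in 4 peaks. Peak edges at E of 1 gave a median width of 1200 bp. A threshold of 3, or 1 summit per peak, moved the difference between IP columns to 0.58 or 0.53, the share inside genes to 28.9% or 31.0%, and the share of IP counts from 4.62% to 2.97% or 2.00%.

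Over all windows edgeR called 10457 higher and 764 lower in the primary table, and 8437 and 984 in the multi-mapped one. Library totals gave 6554 and 7533 in the primary table and moved the median over windows of the log2 fold change from -0.01 to -0.16. They gave 6430 lower windows in the other. DESeq2 called 212 lower in the primary table and 0 in the multi-mapped one (264 at an unadjusted p under 0.05). The tag as a replicate block gave 14868 higher and 4635 lower windows in the primary table. The tags are only names, and the deviations of same-tagged columns correlated at 0.155 and 0.0610 in the 2 tables. Leaving out 1 column, with the lone column of a group assumed to vary like the other group, gave 4580 (input B_1), 5805 (input 1_1) to 17485 (IP 1_1) higher and 49 (input 1_1), 157 (input B_1), 5789 (IP B_1) to 10984 (IP 1_1) lower windows. For the multi-mapped values it gave 3378 (input B_1), 4149 (input 1_1) to 15350 (IP 1_1) higher and 253 (input B_1), 301 (IP B_1), 355 (input 1_1) to 871 (IP 1_1) lower. Both multi-mapped inputs as 1 sample, chosen after seeing the data, gave 3315 higher and 66 lower. The cause of these changes was not tested. Of the 737 peak windows, 669 were called higher from the multi-mapped values with the block, where 7940 of all 120536 tested windows were called.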

Other observations

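A further 8 windows had E of 2 or more but a summed input count of only 5 to 16. Their median E was 2.37, the highest 6.39, and 6 of them adjoined a peak. Their median E in the multi-mapped table was 0.695. That table held 133 windows with E of 1 or more without their being in a peak, with a median E of 1.76 in the primary table. Of these, 67 adjoined a peak, and the lowest primary E among the 133 was -0.28.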
